A study of Oryza sativa with 6 samples.

Results

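The light-harvesting proteins of the photosystem II antenna and the PsbS protein were followed through every probe set that the platform annotation gives for CAB2R, CAB1R, RCABP69, LHCP, CP24 (LOC4336028), LHCII type III (LOC4343604) and PsbS (LOC4324933). Of these 7 genes 6 had a probe set, 12 probe sets in all, out of 57381 on the Affymetrix Rice Genome Array, of which 22436 name 1 gene. CAB1R had none under its own gene identifier. The symbol LHCP belongs to 3 rice genes in the annotation, CAB2R and CAB1R among them, and stands here for the remaining one (LOC4333359, also called RCABP89). All 12 probe sets passed the filter on low signal. The genes were chosen because of the difference between infested and un-infested tissue on these same arrays, so that difference is described below and supports nothing. The study's own table of the light reaction lists 8 of the 12 probe sets, while 4 came along with their genes.

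Tissue came from the indica rice RP2068-18-3-5 (RP), which resists the Asian rice gall midge biotype GMB1 with a hypersensitive response. RP-I is tissue of plants 15 days old that were exposed to 25 female and 10 male GMB1 midges. It was cut as 1 cm of stem at the feeding site of the maggots. RP-UI is tissue of the same region from unexposed plants that were otherwise handled alike. All trays were moved to a humid chamber 48 hours after insect release. Each group had 3 trays as biological replicates, and each array joins material of 24, 48 and 72 hours after infestation (hai), so the time points cannot be told apart. Values are RMA log2 signals, in which a step of 1 is a 2-fold change, and each tray gave 1 array.

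Light-harvesting chlorophyll a/b proteins are coded in the nucleus, carried into the chloroplast and inserted in the thylakoid membrane, where they hold most of the chlorophyll and pass excitation to the reaction centres. In photosystem II, trimers of LHCII proteins form the outer antenna, and monomeric proteins such as CP24 join them to the core. PsbS is a relative of these proteins that senses acid in the thylakoid lumen and lets excess excitation be lost as heat. In green tissue their transcripts depend on light and on a working chloroplast.

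RP-I had a lower mean signal than RP-UI in 11 of the 12 probe sets, against 48.6% of all probe sets kept. The differences of those 11 ran between -0.47 and -2.96 on the log2 scale. The median over the 12 was -1.31, against 0.01 over all 51532 probe sets kept. In 10 probe sets each RP-I array lay below each RP-UI array, an order found in 9.73% of all probe sets kept, and in 11 the signal was lower in RP-I in all 3 pairs of arrays with the same replicate number, which 22.0% of all probe sets kept showed. When limma was fitted to the whole array, with Benjamini-Hochberg adjustment over the probe sets kept, 0 of the 12 reached an adjusted p under 0.05 (0.328% of all probe sets were lower in RP-I at that threshold), while 10 combined an unadjusted p of at most 0.05 with a 2-fold lower mean (2.90% of all probe sets). In a second fit with the replicate numbers as blocks (the blocked fit) 2 of the 12 passed, 1 of CAB2R and 1 of CP24, against 4.44% of all probe sets lower in RP-I. Since the genes were picked on this contrast, nothing is read from these counts. In pieces of stem, fewer green cells and less of the transcript in each cell cannot be told apart.

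The arrays numbered 3 differed from the others in most of the pairs of control probe sets given below, and RP-I 3 also in its correlations. The log2 fold changes of the members and of the other genes named with one are therefore also given from arrays 1 and 2 of each group alone, apart from the chlorophyll a/b-binding probe set that names no gene and the meristem markers, for which the 3 pairs are given. Over all probe sets, the correlation of RP-I 3 was 0.967 and 0.962 with the other RP-I arrays. It was 0.973 with RP-UI 3, although that array is of the other group. RP-UI 3 was at 0.977 and 0.964 with the other RP-UI arrays and also at 0.973 with RP-I 1. A high correlation across the groups is not particular to number 3, as RP-I 1 and RP-UI 1 were at 0.981. The array holds 5 pairs of control probe sets for the 3′ and the 5′ end of a rice transcript. In 4 of them the log2 signal of the 3′ end minus that of the 5′ end was lowest on the array numbered 3 in both groups. For cyclophilin it was 1.70, 1.52 and 0.45 in RP-I 1, 2 and 3, against 1.99, 2.12 and 0.66 in RP-UI 1, 2 and 3. The exception was 1 of the 2 pairs of probe sets for glyceraldehyde phosphate dehydrogenase, with 0.96, 0.59 and 0.80 in RP-I and 0.75, 0.60 and 0.41 in RP-UI, where RP-I 2 was the lowest of its group. The other pair for that enzyme gave 6.48, 7.0 and 4.10 in RP-I and 6.88, 6.84 and 5.07 in RP-UI. The part of this in the results was not tested.

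The ending of a probe set name tells what its probes bind: _at and _a_at stand for 1 gene, while _s_at and _x_at mark probes that can also bind other transcripts. CAB2R codes for a major protein of the LHCII trimer and is read by 2 probe sets. In the one ending in _a_at the log2 signal was 13.10, 12.87 and 11.76 in RP-I 1, 2 and 3, against 13.67, 13.99 and 14.02 in RP-UI 1, 2 and 3. The groups did not overlap, and RP-I 3 was lower than the other RP-I arrays by over 1 log2 unit. The means were 12.58 ± 0.72 in RP-I and 13.89 ± 0.19 in RP-UI (SD, n = 3 each), a log2 fold change of -1.32 with a standard error of 0.36, so that RP-I held 40.1% of the RP-UI signal. From arrays 1 and 2 alone the log2 fold change was -0.85. The highest signal of any probe set was 14.39 to 14.67 on the 6 arrays, so the RP-UI values of CAB2R lie near the top of the range that was measured. The _s_at probe set gave 11.80, 11.78 and 10.97 in RP-I against 12.71, 13.11 and 13.48 in RP-UI. Here too no RP-I array reached the lowest RP-UI array, with a gap of 0.91 between the groups. The log2 fold change was -1.59 (standard error 0.30), and RP-I stood at 33.3% of RP-UI, while arrays 1 and 2 alone gave -1.12. Both probe sets agree in direction and order, and their log2 fold changes differ by 0.27.

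LHCP is another chlorophyll a/b-binding protein of the LHCII group by the study's table. Its single probe set (ending in _at) had log2 signals of 11.58, 11.33 and 10.52 in RP-I, against 11.64, 12.28 and 12.70 in RP-UI. The groups did not overlap, though RP-I 1 and RP-UI 1 were only 0.07 apart, the smallest gap among the 10 probe sets without overlap. The log2 fold change was -1.06 (standard error 0.37), and it was -0.51, below 2-fold, from arrays 1 and 2 alone. With all arrays this was the smallest difference among the member probe sets past 2-fold, and the next one below that size was the fourth probe set of LHCII type III at -0.47.

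LHCII type III is one of the proteins found in mixed LHCII trimers, and the array has 4 probe sets for it. The _s_at probe set gave log2 signals of 10.82, 10.67 and 9.60 in RP-I and 11.26, 11.55 and 12.56 in RP-UI. The array RP-I 3 was the lowest of the 6 and RP-UI 3 the highest. Its log2 fold change was -1.43 (standard error 0.45). The _a_at probe set read 9.47, 9.38 and 9.18 in RP-I, against 9.80, 10.43 and 11.74 in RP-UI. The RP-I arrays lay within 0.29 of each other here, and the spread was among the RP-UI arrays (SD 0.15 in RP-I and 0.99 in RP-UI). The _x_at probe set gave 11.00, 10.43 and 9.41 in RP-I, against 11.22, 11.63 and 12.10 in RP-UI, again without overlap (log2 fold change -1.37, standard error 0.43). Arrays 1 and 2 alone gave log2 fold changes of -0.66 for the _s_at, -0.69 for the _a_at and -0.71 for the _x_at probe set, so each lost over 0.6 of its size in log2 units and none was past 2-fold.

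The fourth probe set of LHCII type III differed from the rest of its gene. This probe set, ending in _at, gave log2 signals of 7.43, 7.68 and 7.41 in RP-I, against 7.57, 7.78 and 8.58 in RP-UI. Here the groups overlapped, as RP-I 2 lay above RP-UI 1, and only RP-UI 3 stood off. The log2 fold change was -0.47 (standard error 0.28), or -0.12 from arrays 1 and 2 alone, so with all arrays the 4 probe sets of this gene spanned 0.96 on the log2 scale. Of them, this probe set and 2 of the others are not in the study's table, and those 2 had differences of -1.31 and -1.37.

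CP24 is the minor antenna protein that joins LHCII trimers to the photosystem II core, and it has 3 probe sets. The _a_at probe set read 11.90, 11.53 and 11.85 in RP-I, against 12.51, 12.78 and 13.53 in RP-UI. The groups were 0.61 apart, and RP-I 3 was not the lowest array here. The log2 fold change was -1.18 (standard error 0.28), with RP-I at 44.3% of RP-UI. The _x_at probe set gave 10.58, 10.23 and 10.52 in RP-I and 11.08, 11.44 and 12.39 in RP-UI, with a log2 fold change of -1.19 (standard error 0.34). From arrays 1 and 2 alone the values were -0.93 for the _a_at and -0.86 for the _x_at probe set. These 2 probe sets ran in parallel, and their signals differed by 1.14 to 1.43 on each of the 6 arrays.

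The remaining CP24 probe set did not follow them. The _at probe set had log2 signals of 5.23, 5.06 and 4.92 in RP-I, against 5.32, 4.92 and 4.88 in RP-UI. All of these lie below the medians of the arrays (5.44 to 5.49), and the groups overlapped throughout. The log2 fold change was 0.03 (standard error 0.18), which makes it the member probe set whose mean was not lower in RP-I. It was also 0.03 from arrays 1 and 2 alone, and -0.05 without RP-UI 3. Without it the median over the members was -1.31.

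RCABP69 (LOC4343583) was placed with the antenna of photosystem II by the study's table and is read by 1 probe set. It gave log2 signals of 9.92, 9.64 and 9.42 in RP-I, against 10.29, 10.48 and 12.13 in RP-UI. The groups did not overlap, and RP-UI 3 was over 1.5 log2 units above the other RP-UI arrays. The log2 fold change was -1.31 (standard error 0.49). Without both arrays numbered 3 it was -0.61.

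PsbS, the sensor for the loss of excess light energy as heat, had the largest difference of the 12. Its log2 signal was 7.09, 8.0 and 4.35 in RP-I 1, 2 and 3, against 8.86, 9.09 and 10.37 in RP-UI 1, 2 and 3. No RP-I array reached the lowest RP-UI array, and RP-I 3 lay below the median of its own array (5.48). The means were 6.48 ± 1.90 in RP-I and 9.44 ± 0.81 in RP-UI (SD, n = 3 each), a log2 fold change of -2.96 with a standard error of 0.95, which puts RP-I at 12.9% of RP-UI. Most of that size came from pair 3, as the difference was -1.77, -1.09 and -6.02 in pairs 1, 2 and 3. In pair 3 this was the lowest difference among the 51532 probe sets kept. Without both arrays numbered 3 the log2 fold change was -1.43.

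**Figure D1:**
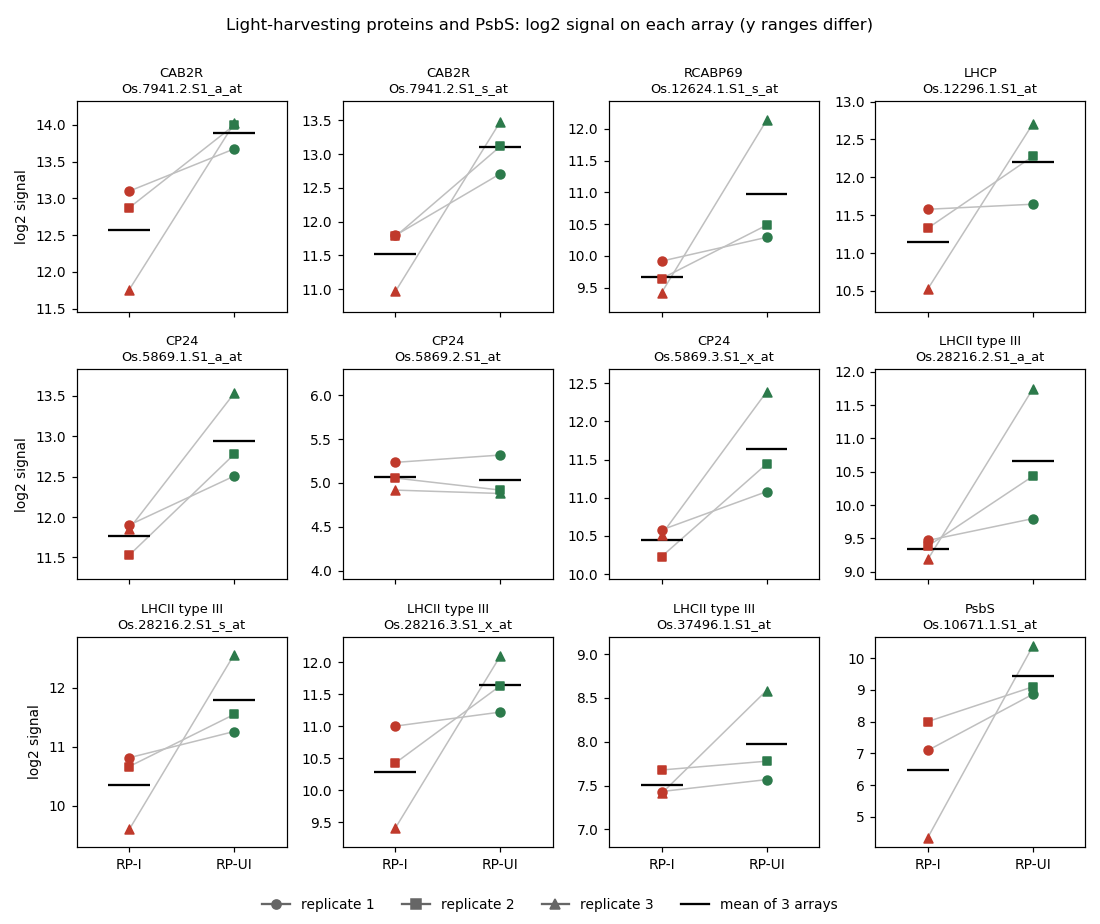
Log2 signal (y axis, with a range of its own in each panel) of the 12 probe sets on each array, with RP-I on the left in red and RP-UI on the right in green. Symbols mark the replicate number, grey lines join arrays of the same number and black bars are the means of 3 arrays. The groups do not overlap in 10 panels, and in the second CP24 panel both means are near 5.

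Across the members, the arrays numbered 3 carried the widest differences. RP-I 3 was the lowest of the 6 arrays in 9 of the 12 probe sets (22.8% of all probe sets kept), and RP-UI 3 the highest in 11 (13.5%). Both held in 9 probe sets, against 2.28% of all probe sets kept. The members were picked for lower signals in RP-I on these arrays, and several probe sets read the same gene. Such orders are thus partly built in, and nothing is read from these counts. The median difference over the members was -0.41 in pair 1, -1.07 in pair 2 and -2.39 in pair 3, while the medians over all probe sets kept were -0.03, -0.01 and 0.05. Pair 3 had the largest difference in 11 probe sets, and pair 1 the smallest in 9. For this order no share of all probe sets was computed, so it is a description. Among the 11 probe sets with a lower mean in RP-I, the differences ran from -0.07 to -1.77 in pair 1, from -0.10 to -1.33 in pair 2 and from -1.17 to -6.02 in pair 3.

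The members also varied together within a group. From the group mean, RP-I 1 deviated upward in 11 of 12 probe sets and RP-I 3 downward in 10, with medians of 0.27 and -0.39. In the other group RP-UI 1 deviated downward in 11 of 12 and RP-UI 3 upward in 11, with medians of -0.48 and 0.60. Over all probe sets kept these medians were within 0.04 of 0. Shares of all probe sets were not computed for the counts. Several of the 12 probe sets read the same gene, so they are not independent. The median SD over the members was 0.36 in RP-I and 0.53 in RP-UI, against 0.23 and 0.22 over all probe sets kept.

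**Figure D2:**
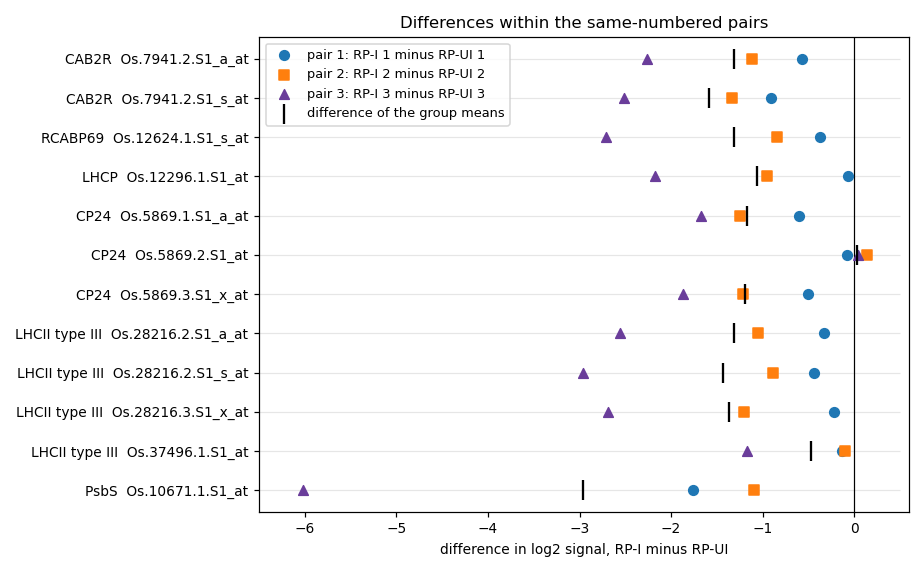
Difference in log2 signal between RP-I and RP-UI (x axis) within each of the 3 same-numbered pairs, for each of the 12 probe sets (y axis). Black ticks are differences of the group means and the vertical line marks no difference. Pair 3 (triangles) reaches -6.02 for PsbS, and the second CP24 probe set stays within 0.14 of 0.

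Leaving out the arrays numbered 3 made the differences of the 11 probe sets with a lower mean smaller and left their direction. The median over the members was -0.70 from arrays 1 and 2 alone. Dropping RP-I 3 by itself gave -1.12, and dropping RP-UI 3 by itself gave -0.85. From arrays 1 and 2 alone, 1 of the 12 probe sets had an adjusted p under 0.05 (2.05% of all probe sets were lower in RP-I at that threshold), the _s_at one of CAB2R, whose log2 fold change was -1.12. The 11 probe sets with a lower mean in RP-I kept that sign under each of the 14 other settings fitted. Of the 12 probe sets, 5 end in _s_at or _x_at. The genes of this family are alike in sequence, so a value of those 5 may hold signal of relatives. The median of the other 7 probe sets was -1.18.

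Other probe sets of antenna proteins could be named through the study's table. LOC4324705 is read by a probe set that the table gives for a chlorophyll a/b-binding protein and a glycogen synthase gene next to it. Its log2 signals were 11.28, 10.70 and 9.61 in RP-I, against 11.46, 11.82 and 12.39 in RP-UI, with RP-I 3 lowest and RP-UI 3 highest. A probe set that names no gene in the annotation, and that the table gives for another chlorophyll a/b-binding protein, had signals of 9.78, 9.47 and 8.49 in RP-I and 10.06, 10.38 and 10.58 in RP-UI. Their log2 fold changes were -1.36 (standard error 0.46) and -1.09 (standard error 0.35). That of LOC4324705 was -0.65 from arrays 1 and 2 alone, and the other probe set had differences of -0.28, -0.91 and -2.09 in pairs 1, 2 and 3. As the study listed both for their change on these arrays, they are no separate support.

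Other genes of the light reactions were taken by symbol, with earlier results of these data known, and did not share one direction. They hold 3 genes of photosystem subunits. Of 19 probe sets of photosystem subunits, electron carriers and Rubisco with its activase (11 genes), 12 had a lower and 7 a higher mean in RP-I, with a median log2 fold change of -0.16, against 0.01 over all probe sets. In limma 0 of the 19 had an adjusted p under 0.05 (0.563% of all probe sets, in either direction, did), 4 had an unadjusted p of at most 0.05, and 1 was higher in RP-I in the blocked fit (4.06% of all probe sets). For the unadjusted limit alone no share of all probe sets was computed, here or for the lists below. Nothing is read from those counts.

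Photosystem subunits around the antenna went in different directions. OEE3, a protein of the oxygen-evolving complex of photosystem II, gave log2 signals of 10.68, 11.00 and 11.53 in RP-I, against 10.86, 11.26 and 12.62 in RP-UI (log2 fold change -0.51, limma adjusted p = 0.783, and -0.22 from arrays 1 and 2 alone). Here RP-I 3 was the highest RP-I array. PSAH of photosystem I was at 0.00 (standard error 0.30, limma adjusted p = 0.999), and at 0.33 from arrays 1 and 2 alone. PSAG, also of photosystem I, has 2 probe sets that went apart. The first gave 7.90, 7.70 and 8.57 in RP-I, against 6.35, 7.33 and 7.37 in RP-UI, with each RP-I array above each RP-UI array (log2 fold change 1.04, standard error 0.36, limma adjusted p = 0.248, and 0.96 from arrays 1 and 2 alone). The second overlapped at -0.26 (limma adjusted p = 0.510, and -0.17 from arrays 1 and 2 alone), so no direction can be given for that gene.

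Among the carriers of electrons, plastocyanin (PETE) gave log2 signals of 12.29, 12.43 and 11.13 in RP-I, against 12.57, 12.39 and 13.19 in RP-UI. The groups overlapped, and nearly all of its log2 fold change of -0.77 (limma adjusted p = 0.479) came from pair 3, with -2.06, and it was -0.13 from arrays 1 and 2 alone. The Rieske protein petC had a value of -0.19 (limma adjusted p = 0.923), which turned to 0.24 from arrays 1 and 2 alone. LFNR1, the leaf ferredoxin reductase, gave 6.45, 6.65 and 5.21 in RP-I against 7.69, 7.0 and 7.47 in RP-UI. These groups did not overlap, and the log2 fold change was -1.28 (standard error 0.41, limma adjusted p = 0.215), or -0.79 from arrays 1 and 2 alone. LIR1, a light-regulated protein that binds the leaf reductase, ran the other way with 10.85, 10.78 and 11.96 in RP-I against 9.85, 8.60 and 10.68 in RP-UI (log2 fold change 1.49, standard error 0.58, limma adjusted p = 0.313, and 0.0333 in the blocked fit). Arrays 1 and 2 alone gave 1.59 for it.

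Rubisco fixes carbon dioxide and its activase keeps it working, and both are abundant in green cells. The RBCS probe set of highest signal read 10.36, 10.34 and 11.51 in RP-I, against 10.15, 10.81 and 11.23 in RP-UI (log2 fold change 0.00, standard error 0.41, and -0.14 from arrays 1 and 2 alone). The groups overlapped, and the array numbered 3 was the highest in each. The remaining RBCS probe sets that were kept had log2 fold changes of 0.41, 0.13 and 0.01. From arrays 1 and 2 alone these were 0.34, 0.23 and 0.03. The one at 0.41 was higher in RP-I without overlap, with 8.67, 8.69 and 9.02 against 8.33, 8.35 and 8.45 in RP-UI. All 4 probe sets of RBCS that were kept had limma adjusted p-values of 0.279 or above. The 4 probe sets of the activase had lower means in RP-I, between -0.69 and -1.01 (limma adjusted p of 0.472 to 0.723), with overlap in each. These values rest largely on RP-I 3. Without that array 3 of the 4 probe sets were at -0.05, -0.21 and -0.10 and the remaining one at -0.76, and arrays 1 and 2 alone gave -0.20 to -0.47 for the 4. Summed over the 8 mesophyll probe sets of both genes, the signal on a linear scale was 4278 to 4909 in RP-I and 4341 to 6978 in RP-UI, so the groups overlapped.

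Genes that act on the pigments of the antenna had higher means in RP-I in 6 of 6 probe sets (51.4% of all probe sets kept had one), with a median log2 fold change of 0.28. NYC1 is a chlorophyll b reductase, which starts the breakdown of chlorophyll b and of LHCII in rice. It gave log2 signals of 10.27, 10.20 and 10.90 in RP-I, against 9.54, 9.26 and 9.92 in RP-UI, without overlap. Its log2 fold change was 0.88 (standard error 0.26, limma adjusted p = 0.184, and 0.0245 in the blocked fit), and 0.84 from arrays 1 and 2 alone. Zeaxanthin epoxidase (ZEP), which works against the pigment that acts with PsbS, had a value of 0.49 (limma adjusted p = 0.307, and 0.60 from arrays 1 and 2 alone), again with each RP-I array above each RP-UI array. NOL, the partner of NYC1, and the stay-green protein SGR had values between 0.11 and 0.29 (limma adjusted p of 0.493 to 0.968). From arrays 1 and 2 alone the 2 of NOL were at 0.19 and -0.21, which turns the sign of the second, and the 2 of SGR at 0.72 and 0.53. In limma 0 of the 6 passed (0.563% of all probe sets, in either direction), 2 had an unadjusted p of at most 0.05, and in the blocked fit NYC1 passed as higher (4.06% of all probe sets).

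Regulators of light responses gave a mixed picture. GLK1 and GLK2 are transcription factors that switch on antenna genes in other plants. GLK1 had a log2 fold change of -0.03 (limma adjusted p = 0.986, and -0.05 from arrays 1 and 2 alone), and the 4 probe sets of GLK2 lay between -0.59 and 0.12 (limma adjusted p of 0.433 to 0.969). Without both arrays numbered 3 the GLK2 probe set with the largest difference was at -0.78, and the others were at 0.45, -0.35 and -0.45. The limma adjusted p of the first was 0.0482, in a fit where 2.05% of all probe sets passed as lower in RP-I. Its log2 signals were 5.93 to 7.07 on the 6 arrays. The GLK2 probe set of highest signal, at -0.35, had a limma adjusted p of 0.397 in that fit. The photoreceptor phytochrome A had higher signals in both of its probe sets, with 11.85, 11.46 and 12.45 in RP-I against 10.98, 10.39 and 11.33 in RP-UI for the one of higher signal. Its log2 fold changes were 1.02 and 1.22 (limma adjusted p = 0.229 and 0.350, and 0.0199 and 0.0276 in the blocked fit), and arrays 1 and 2 alone gave 0.97 and 1.09. Phytochromes B and C had values of 0.04 and 0.07 (limma adjusted p = 0.968 and 0.984), which turned to -0.11 and -0.23 from arrays 1 and 2 alone. Of the 9 probe sets of regulators 0 passed in limma (0.563% of all probe sets), and the 2 of phytochrome A, the ones with an unadjusted p of at most 0.05, were higher in the blocked fit (4.06%).

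**Figure D3:**
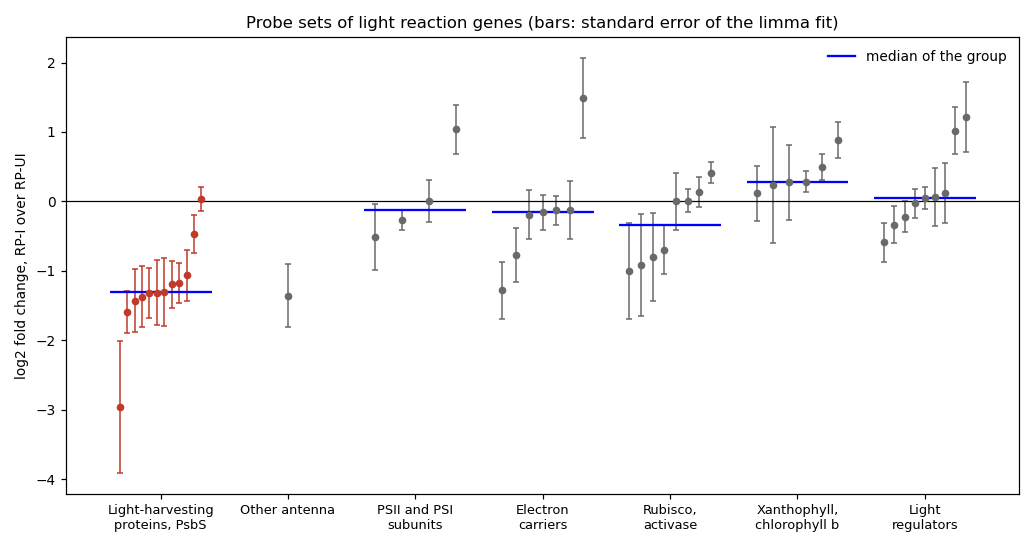
Log2 fold change of RP-I over RP-UI (y axis) for the probe sets of the light-harvesting proteins and PsbS (red) and for other light reaction genes by group (grey, x axis). Bars are standard errors of the limma fit and blue lines are group medians. The median is -1.31 for the members and between -0.35 and 0.28 for the groups of more than 1 probe set.

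The labels name a stem region, and the paper describes it as meristematic tissue at the feeding site. Neither names leaf sheaths, which were taken here to surround it. Markers of green and of meristem tissue were measured. The Rubisco and activase values above are those of green mesophyll, where 4 probe sets had a higher and 4 a lower mean in RP-I. Those higher were all of RBCS and those lower all of the activase. Among those of RBCS were differences of 0.00 and 0.01. The one at 0.01 had signals of 3.47 to 3.88, close to the filter on low signal at 3.38. The split is therefore one between genes and does not show that green tissue was unchanged. The meristem homeobox genes OSH1, OSH6, OSH43 and OSH71, of 5 such genes listed, had higher means in RP-I in 6 of 6 probe sets (51.4% of all probe sets kept did), without overlap in 3 (9.12% of all probe sets kept had each RP-I array above each RP-UI array). Their summed signal on a linear scale was 1159 to 1450 in RP-I and 569 to 759 in RP-UI. OSH71 rose, with signals of 8.63, 8.22 and 8.57 in RP-I against 7.02, 6.45 and 7.03 in RP-UI (log2 fold change 1.64, limma adjusted p = 0.0476, which 0.235% of all probe sets passed as higher in RP-I). Its differences were 1.61, 1.77 and 1.54 in pairs 1, 2 and 3. With any single array other than RP-I 3 left out, the number of probe sets that passed over the whole array was 0. A probe set of OSH1 with a log2 fold change of 0.93 had a limma adjusted p of 0.172. In the blocked fit it was 0.0304, where 4.06% of all probe sets were higher. The differences of this probe set were 1.22, 0.77 and 0.79 in pairs 1, 2 and 3. The other probe set of OSH1 was at 2.32, with 1.85, 3.99 and 1.13 in the pairs. Its limma adjusted p was 0.205, and 0.0697 in the blocked fit. The part of a different make-up of the tissue in the lower antenna signal was not tested. The pollen gene C6 was at 3.76 to 3.88 in RP-I and 3.68 to 3.80 in RP-UI, close to the filter on low signal at 3.38, and the root genes listed had no named probe set.

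Genes outside these lists were ranked by how closely their 6 values follow the mean profile of the members. That profile, in log2 units around its own mean, was -0.37, -0.40 and -1.42 in RP-I 1, 2 and 3 and 0.24, 0.55 and 1.39 in RP-UI 1, 2 and 3. Among 3063 probe sets of genes with a name, the highest Pearson correlation over the 6 arrays was that of LAC23, a laccase (r = 0.995), with signals of 5.07, 5.14 and 4.44 in RP-I and 5.56, 5.80 and 6.18 in RP-UI. It was followed by KCS20 (r = 0.974), CESA9 (r = 0.973), OsPAB1 (r = 0.973) and BZIP02 (r = 0.972). The points share the 6 arrays and the group difference, and 6 values leave room for many close matches, so the order is a description.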

How the data were processed

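RNA of 6 RP stem samples was hybridized to the Affymetrix Rice Genome Array. The authors summarised each probe set with RMA, and the deposited values are on the log2 scale. GeneSpring is the software of the methods section. In the submitters' processing notes it is Affymetrix Expression Console with RMA. No version is given in the sources used here. The sources also differ on whether tissue or RNA of the time points was pooled. The number of arrays limits the precision.

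The 123 control probe sets were left out, and 51532 probe sets with a mean over the 6 arrays at or above the 10th percentile were kept. RP-I was compared with RP-UI by limma 3.58.1 in R 4.3.3 (lmFit, eBayes), with p-values adjusted over all probe sets kept, a fit tested on simulated data. The simulated noise was independent between arrays and of the same SD for all probe sets. It therefore does not cover deviations that arrays share or SDs that differ between probe sets. Standard errors are those of that fit, and ± marks SDs. Tables and figures were made with Python 3.11.15, pandas 2.3.3, numpy 2.4.6 and matplotlib 3.10.9.

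Arrays of the same number deviated alike from their group means (r = 0.521, 0.308 and 0.624 for numbers 1, 2 and 3). This met the rule for a pairing, which was set as a correlation above 0.1 in every pair. RP-I 1 with RP-UI 2 (r = 0.244) and RP-I 2 with RP-UI 1 (r = 0.295) lay above 0.1 as well, so the rule cannot tell numbers 1 and 2 apart. Unlike combinations with number 3 were negative (r = -0.547, -0.460, -0.499 and -0.347). Deviations from a group mean cancel within the group, so these values are tied to the 0.624 of number 3. They are no separate evidence for a pairing. What the numbers share is not stated. Changes of call in the fit with replicate numbers as blocks are given for members, list genes and meristem markers.

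The members and the lists were chosen with earlier results of these data known. The annotation holds no product names, so lists planned by product were made from symbols: 24 genes, of which 22 had a probe set (36, with 35 kept). Named are all members, the antenna genes, in each list the gene of highest signal and those past the threshold with or without the block, and the 5 nearest profiles, while further list genes were named after their values were seen. Gene sequences were not used here. Other settings tried were other filters, scalings, single arrays or replicate numbers left out, and the study's thresholds.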

Additional observations from a re-analysis of the deposited data

How the results depend on the processing

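The median log2 fold change of the members stayed between -1.73 and -0.70 when single arrays or replicate numbers were left out, and between -1.33 and -1.18 under the other filters, scalings and choices of probe sets. Of the members, 0 passed without and 2 with replicate numbers taken as blocks in the pairing. Over the array the calls numbered 290 (4379 with the block, 126 with each array centred on its median, 0 to 2492 with arrays or numbers left out), those in the lists of other light reaction genes 0 (4 with the block, 0 to 1 with arrays left out), and those among members 0 to 1 with arrays left out. With a 2-fold limit and p up to 0.05 before adjustment, 2865 probe sets, 10 members and 6 of the lists passed. The cause of these shifts was not tested. The block changed no call of a member or list probe set other than those named above. Each group has 3 arrays, and no signal over background is given with these values.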
